A study of Rattus norvegicus with 12 samples.

Results

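The genes described here are 10 chemokines, taken as the 10 rows whose gene name is Ccl2, Ccl5, Ccl7, Ccl20, Cxcl1, Cxcl2, Cxcl3, Cxcl10, Cxcl12 or Cx3cl1 out of 18344 rows of deposited expression values. By the spacing of their conserved cysteines, 4 are CC chemokines, 5 are CXC chemokines and 1, Cx3cl1, is the CX3C chemokine. Their levels were read in all 12 RNA libraries of the series.

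The libraries came from rat cells exposed to oxygen-glucose deprivation followed by reperfusion (OGD/R), a culture model of ischaemia, and every group carried that exposure. There were 4 groups of 3 libraries, named for what was added to OGD/R: NC, CIRBP, si-NC and si-CIRBP. CIRBP is the name of the cold-inducible RNA-binding protein, and NC and si-NC are the controls of the CIRBP and si-CIRBP groups. The labels give H9C2, a rat heart myoblast line, as source and tissue but name rat astrocytes under cell line, and the conflict is not resolved there. Those sources do not say how each treatment was delivered, and the prefix "ad" on the table columns of the NC and CIRBP groups is not explained. A group spared OGD/R was not analysed here. The libraries of a group are called biological replicates, with no word on separate cultures or days, so the p-values measure the spread between these libraries.

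Cirbp itself averaged 19.7 ± 0.557 FPKM for NC and 35.8 ± 1.27 FPKM for CIRBP (mean ± SD, n = 3 each), higher by 0.83 on the log2 scale (adjusted p = 2.47e-06, limma). Its level was 26.7 ± 2.43 FPKM for si-NC and 27.6 ± 1.04 FPKM for si-CIRBP, a log2 difference of 0.05 (adjusted p = 0.609, limma), so the latter are called the libraries labelled si-CIRBP below. FPKM are fragments scaled to transcript length and library size, so levels of different genes can be set side by side. Depth relative to the first NC library ran from 0.842 to 1.03. The astrocyte list held 5 of its 6 markers in the table and summed to between 115 and 196 FPKM, most of it S100b, whereas Gfap stayed at 6.89 FPKM or lower. Of the skeletal and cardiac muscle list, the cardiac myosin Myh6, Actc1 and Nppa were under 1 FPKM in every library. Its Tnnt2, Myod1, Myog and Des were not, and in NC and CIRBP only Tnnt2 averaged 1 FPKM or more. That list summed to at most 4.48 FPKM in NC, 6.76 FPKM in CIRBP, 114 FPKM in si-NC and 149 FPKM in si-CIRBP. Its Tnnt2 reached 89.9 FPKM in library 3 labelled si-CIRBP. Of the macrophage and microglia list 3 of 8 markers had a row, and their sum, most of it Cd14, lay between 12 and 18.8 FPKM in every library.

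Chemokines are small secreted proteins that bind receptors coupled to G proteins and draw leukocytes along their gradient. Ccl2 and Ccl7 recruit monocytes through Ccr2, Ccl5 recruits T cells and monocytes, Ccl20 acts through Ccr6, and Cxcl1, Cxcl2 and Cxcl3 recruit neutrophils through Cxcr2. Cxcl10 is induced by interferon and acts through Cxcr3, Cx3cl1 (fractalkine) is made as a membrane-anchored protein that can be shed, and Cxcl12 is a homeostatic chemokine of stromal cells that binds Cxcr4 and Ackr3. The inflammatory members are well-known targets of the transcription factor NF-kB, and in injured heart Ccl2 and the neutrophil chemokines belong to the early inflammatory response.

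The promoters of some members are shown because the NF-kB genes, given further below, changed in the same comparisons. RefSeq start regions on the rat build GRCr8, 250 bases before to 50 bases after the start site, were matched by symbol for 7 of the 10 members. Ccl2, Ccl5 and Cxcl3 had no entry. The κB consensus was searched on both strands, together with TGANTCA for AP-1 and TTTC, any 2 bases, TTTC for the interferon-stimulated response element (ISRE). Capitals in the sequences below mark κB matches. They lie at chr14:17479272-17479571 (minus strand) for Cxcl1, chr14:17467206-17467505 (minus strand) for Cxcl2, chr14:15988816-15989115 (plus strand) for Cxcl10, chr10:67513845-67514144 (plus strand) for Ccl7 and chr4:152060531-152060830 (plus strand) for Cxcl12. Each is written 5′ to 3′ in the direction of the gene, the first 4 with a κB match and Cxcl12 without one.
Cxcl1: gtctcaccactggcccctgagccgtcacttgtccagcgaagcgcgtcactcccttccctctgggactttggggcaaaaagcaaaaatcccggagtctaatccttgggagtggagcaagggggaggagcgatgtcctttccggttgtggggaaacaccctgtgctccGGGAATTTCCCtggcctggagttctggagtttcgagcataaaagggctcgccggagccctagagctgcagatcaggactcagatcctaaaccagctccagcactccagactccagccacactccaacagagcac
Cxcl2: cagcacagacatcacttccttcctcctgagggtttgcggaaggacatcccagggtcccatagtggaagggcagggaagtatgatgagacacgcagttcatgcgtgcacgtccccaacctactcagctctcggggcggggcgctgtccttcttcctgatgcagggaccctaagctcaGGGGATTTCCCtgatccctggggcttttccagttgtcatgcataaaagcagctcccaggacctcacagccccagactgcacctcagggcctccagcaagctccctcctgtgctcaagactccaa
Cxcl10: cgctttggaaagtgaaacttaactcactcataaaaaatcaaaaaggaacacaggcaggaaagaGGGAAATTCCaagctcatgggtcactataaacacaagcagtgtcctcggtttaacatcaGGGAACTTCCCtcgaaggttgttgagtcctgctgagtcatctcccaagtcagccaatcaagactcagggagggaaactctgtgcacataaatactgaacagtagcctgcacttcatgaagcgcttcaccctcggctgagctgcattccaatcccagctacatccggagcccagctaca
Ccl7: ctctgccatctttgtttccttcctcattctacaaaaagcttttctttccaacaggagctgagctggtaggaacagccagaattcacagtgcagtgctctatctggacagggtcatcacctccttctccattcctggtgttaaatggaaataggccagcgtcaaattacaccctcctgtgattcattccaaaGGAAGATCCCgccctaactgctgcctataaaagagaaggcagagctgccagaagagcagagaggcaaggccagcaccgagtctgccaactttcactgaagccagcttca
Cxcl12: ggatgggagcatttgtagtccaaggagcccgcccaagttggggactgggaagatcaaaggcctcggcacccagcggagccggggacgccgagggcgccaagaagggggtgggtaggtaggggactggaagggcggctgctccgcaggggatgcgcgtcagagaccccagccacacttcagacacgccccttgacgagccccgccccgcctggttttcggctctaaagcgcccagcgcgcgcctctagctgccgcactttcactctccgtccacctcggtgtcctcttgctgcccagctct

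A κB match was present in 5 of the 7 windows, those of Ccl7, Ccl20, Cxcl1, Cxcl2 and Cxcl10, and in 7.51% of 33469 RefSeq promoters of the same length. The Cxcl1 match began 84 bases before the start site and the Cxcl2 match 74 bases before it, and in each a second match shifted by 1 base overlapped the first. Cxcl10 had a match 187 bases before the start and a pair of overlapping matches from 128 bases before it. Ccl7 had its match 59 bases and Ccl20 89 bases before the start, on the opposite strand. AP-1 matches were found in Ccl7 and Cxcl10, against 7.33% of promoters, and an ISRE match in Cxcl10, 243 bases before its start, against 3.92% of promoters. The windows of Cxcl12 and Cx3cl1 held none of the 3 motifs and were rich in G and C (66.7% and 66.3%). In the comparisons given below, Ccl5, Cxcl3 and Cx3cl1 were called lower both in CIRBP against NC and in si-CIRBP against si-NC. Of these, Ccl5 and Cxcl3 had no window and Cx3cl1 had no κB match. Cxcl1, with a match, was called lower only in CIRBP against NC, and Ccl7, with a match, only in si-CIRBP against si-NC. A bearing of the matches on these changes was not tested. A match is a run of letters in these windows and was not tied to binding in these cells.

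By level, Cxcl10 and Ccl2 led the members in NC and in CIRBP, and Ccl2 led in si-NC and in the libraries labelled si-CIRBP. In NC, Cxcl10 was at 73.2 ± 2.49 FPKM and Ccl2 at 70.2 ± 5.34 FPKM with overlapping ranges, followed by Cxcl1 at 31.9 ± 0.74 FPKM, and Ccl7 and Ccl5 at 6.81 ± 0.516 and 5.73 ± 1.33 FPKM, again overlapping. Cxcl3 at 2.31 ± 0.477 FPKM and Cx3cl1 at 1.46 ± 0.15 FPKM came next, each apart from its neighbours, and Cxcl2, Ccl20 and Cxcl12 stayed under 0.31 FPKM in each NC library. In CIRBP the order of the first 4 was Cxcl10, Ccl2, Cxcl1 and Ccl7, with Cxcl10 and Ccl2 overlapping and Cxcl1 and Ccl7 overlapping, and the other 6 were all under 0.15 FPKM with overlapping ranges.

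In si-NC the order was Ccl2, Cxcl1, Ccl7, Ccl5, Cxcl10, Cxcl12, Cxcl3, Cx3cl1, Cxcl2 and Ccl20. There Cxcl1 overlapped Ccl7, Ccl5 overlapped Cxcl10, and Cxcl12 overlapped Cxcl3, while the other neighbours were apart. In the libraries labelled si-CIRBP the order of the means was Ccl2, Cxcl1, Ccl7, Cxcl10, Cxcl12, Ccl5, Cxcl2, Cx3cl1, Cxcl3 and Ccl20. Of these neighbours only Cxcl10 with Cxcl12 and Cxcl3 with Ccl20 were apart. Within each library labelled si-CIRBP, Ccl2 came first. In libraries 2 and 3 labelled si-CIRBP, Ccl7 was above Cxcl1, and Cxcl2 was below both Cx3cl1 and Cxcl3. The 10 members summed to 182 to 201 FPKM in the NC libraries, 79.9 to 108 FPKM in CIRBP, 2454 to 2999 FPKM across si-NC and 2619, 568 and 702 FPKM in the libraries 1, 2 and 3 labelled si-CIRBP. Ccl2 alone made up 35.5% to 37.4% of that sum in NC, 39.4% to 44.4% in CIRBP, 59.5% to 62.9% in si-NC and 56% to 63.6% in si-CIRBP.

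**Figure D1:**
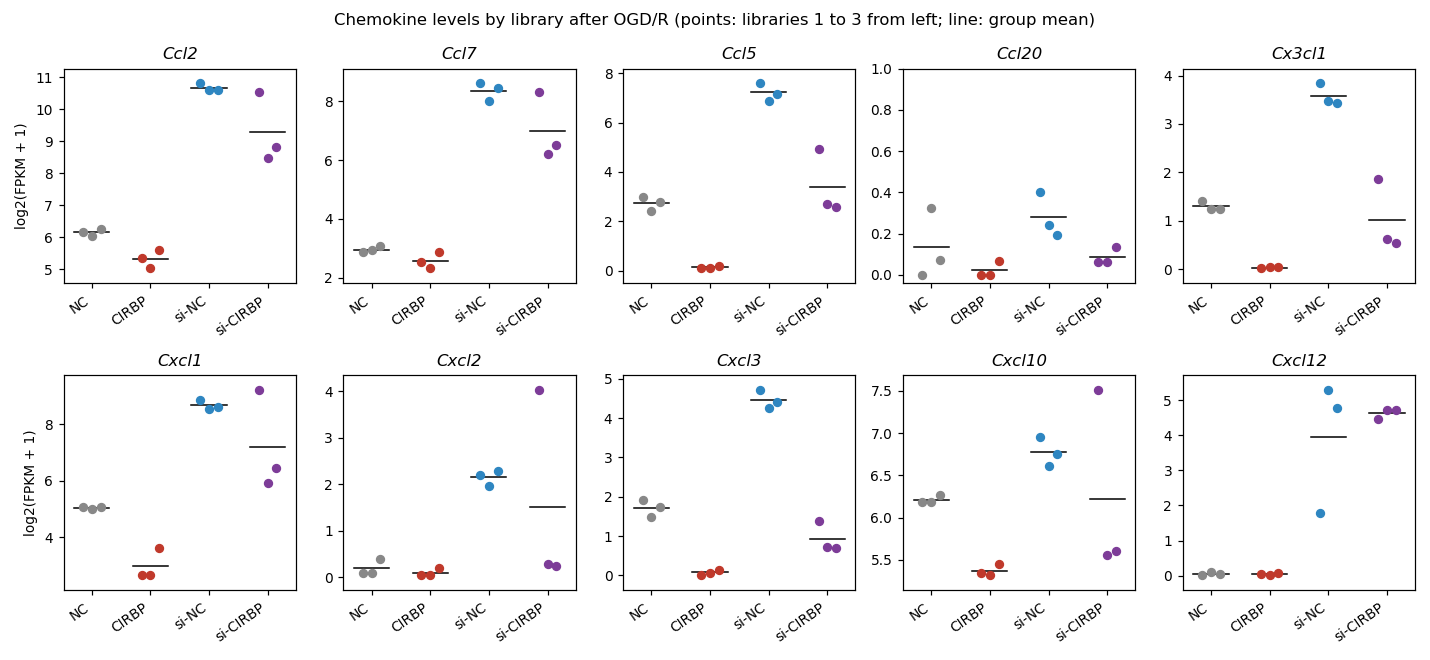
Level of each of the 10 chemokines as log2(FPKM + 1) (vertical axes, each with its own range) in the 12 libraries, with points for libraries 1 to 3 of a group from left to right and a line at the group mean. Ccl5, Cxcl3 and Cx3cl1 sat near 0 in all 3 CIRBP libraries, library 1 labelled si-CIRBP stood above libraries 2 and 3 for every member except Cxcl12 and Ccl20, and Cxcl12 was near 0 in NC and CIRBP.

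CIRBP was compared with NC to ask what the treatment named for the protein did to expression under OGD/R. Ccl5, Cxcl1, Cxcl3 and Cx3cl1 fell, Ccl2, Ccl7 and Cxcl10 were lower in all 3 CIRBP libraries without passing the test, and Cxcl2 and Cxcl12 were barely read in either group. Of the 10 members 9 entered the test, which needed 1 FPKM or more in at least 3 libraries. Ccl20 did not, and Cxcl2 and Cxcl12 entered only through their levels in si-NC and si-CIRBP. Called lower were 4 of the 9 and called higher 0 (limma, adjusted p under 0.05 over 14257 genes), and at an unadjusted p under 0.05 the counts were also 4 and 0. Over all genes tested 54% were called in this comparison, 34.2% lower and 19.7% higher (4881 and 2814 genes, and 3757 and 4088 when every library was brought to one median, where 4 and 0 members were called). The median log2 fold change was -0.84 over the 9 members and -0.08 over all genes tested. For 7 of the 9 the groups did not overlap with CIRBP the lower, as for 45% of all genes tested, and for 0 of the 9 with CIRBP the higher, as for 29.7%. In these bulk libraries, fewer cells that make a chemokine and less of its RNA per cell cannot be told apart.

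Among the CC chemokines, Ccl5 was at 6.96, 4.32 and 5.91 FPKM in the NC libraries and 0.0619, 0.0657 and 0.143 FPKM in the CIRBP libraries. Every CIRBP library was far below every NC library. The log2 fold change was -2.61 (SE 0.498, adjusted p = 0.00115, limma) on the log2(FPKM + 1) scale, which understates the change of a gene this low. Fragments behind the values were recovered, because the FPKM of 1 gene are whole multiples (within 0.001) of what 1 fragment is worth in a library. They came to 109, 59 and 78 in NC against 1, 1 and 2 in CIRBP, if the counts share no common factor. At equal depth that is 65.7-fold fewer, with a 95% interval of 25.3 to 243 that covers counting error only.

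Ccl2 was at 71, 64.6 and 75.2 FPKM across NC and 40, 31.5 and 47.5 FPKM in CIRBP. The groups did not overlap, the means differed 1.77-fold, and the log2 fold change of -0.83 (interval -1.73 to 0.08) had an adjusted p of 0.113 (limma). The spread in that test is pooled over all 4 groups, and Ccl2 varied most among the libraries labelled si-CIRBP. Without library 1 labelled si-CIRBP the same fold change had an adjusted p of 0.000593, and with only NC and CIRBP in the fit 0.00241 (limma).

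Ccl7 was at 6.38, 6.66 and 7.38 FPKM across NC and 4.76, 4 and 6.31 FPKM in CIRBP, lower in each CIRBP library by a narrow margin (log2 fold change -0.39, adjusted p = 0.483, and 0.0466 with only NC and CIRBP in the fit, limma). Ccl20 was at 0, 0.253 and 0.0525 FPKM across NC and 0, 0 and 0.0494 FPKM in CIRBP. These values rest on 6 and 1 fragments in all, too few to show a difference at this depth.

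Among the neutrophil chemokines, Cxcl1 was at 32.4, 31.1 and 32.4 FPKM across NC and 5.39, 5.29 and 11.2 FPKM in CIRBP. The 3 NC values lay together and well above CIRBP, and the means differed 4.39-fold (log2 fold change -2.06, SE 0.66, adjusted p = 0.0216, limma). Leaving out any 1 NC library, or CIRBP library 1 or 2, moved the adjusted p to between 0.0509 and 0.0677 with log2 fold changes of -1.9 to -2.08.

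Cxcl3 was at 2.78, 1.82 and 2.34 FPKM across NC and 0, 0.0488 and 0.106 FPKM in CIRBP, from 117, 67 and 83 fragments against 0, 2 and 4. It was close to its floor in each CIRBP library. Its log2 fold change was -1.65 (SE 0.192, adjusted p = 3.93e-05, limma), and at equal depth there were 47.5-fold fewer fragments (95% interval 21.5 to 131, counting error only). Cxcl2, a neighbour of Cxcl1 in the genome, was at 0.0649, 0.0744 and 0.308 FPKM across NC and 0.0314, 0.0334 and 0.145 FPKM in CIRBP, 12 against 6 fragments in all, so no difference was detectable at this depth.

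Cxcl10 was at 71.9, 71.6 and 76 FPKM across NC and 39.7, 38.9 and 42.6 FPKM in CIRBP. Both groups were tight and 1.81-fold apart in their means, yet the log2 fold change of -0.84 (interval -1.73 to 0.05) had an adjusted p of 0.101 (limma), again with a spread pooled over all 4 groups. Without library 1 labelled si-CIRBP the adjusted p was 7.79e-06, and with only NC and CIRBP in the fit 8.09e-06.

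Cx3cl1 was at 1.64, 1.38 and 1.37 FPKM across NC and 0.0108, 0.0343 and 0.0249 FPKM in CIRBP, from 147, 108 and 104 fragments against 1, 3 and 2. The membrane chemokine was thus nearly unread in CIRBP. Its log2 fold change was -1.26 (SE 0.286, adjusted p = 0.00331, limma), and the fragments differed 63.9-fold at equal depth (95% interval 29.1 to 175, counting error only). Cxcl12 was under 0.07 FPKM in all 6 libraries, and its log2 fold change was -0.01 (adjusted p = 0.997, limma).

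**Figure D2:**
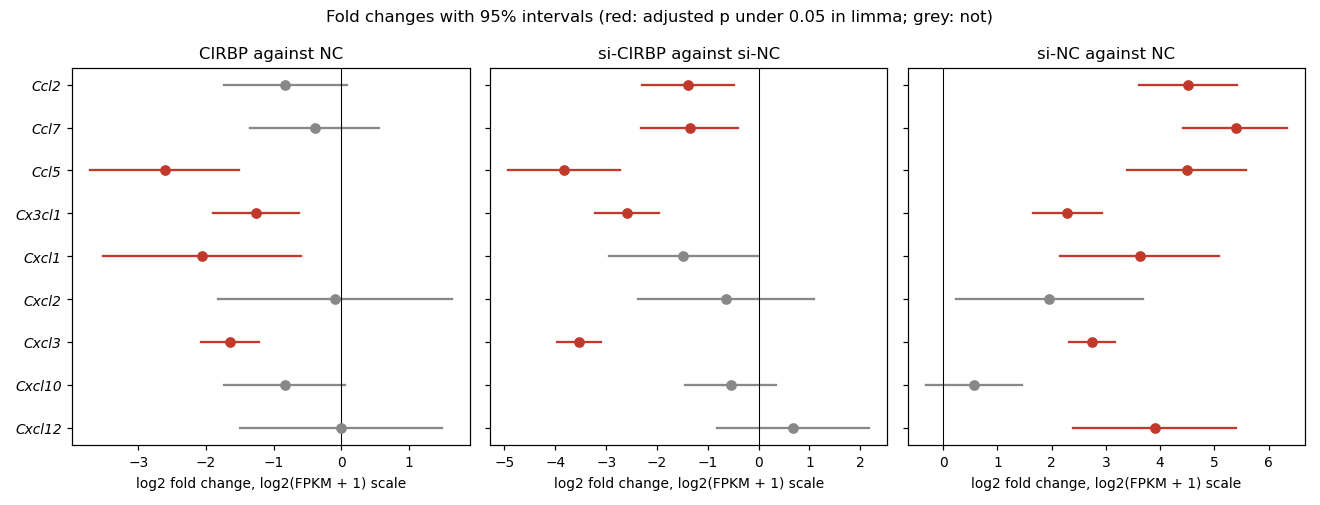
Log2 fold changes on the log2(FPKM + 1) scale (horizontal axes) of the 9 tested chemokines in 3 comparisons, with 95% intervals from limma as bars, red where the adjusted p is under 0.05. Against NC, CIRBP had 4 members in red and all of them lower, si-CIRBP against si-NC had 5, all lower, and si-NC against NC had 7, all higher. In the last of these the direction of Cxcl2 and Cxcl12 was set by the filter on low values.

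The libraries labelled si-CIRBP were compared with si-NC. Ccl2, Ccl5, Ccl7, Cxcl3 and Cx3cl1 fell, none rose, and Cxcl1, Cxcl2, Cxcl10 and Cxcl12 did not pass the test. Called lower were 5 of the 9 members and called higher 0 (limma), against 6 and 0 at an unadjusted p under 0.05. Of all genes tested 29.6% were called, 20.5% lower and 9.08% higher (2924 and 1294 genes, and 1903 and 2420 with every library brought to one median, where 4 and 0 members were called). The median log2 fold change was -1.39 over the 9 members and -0.04 over all genes. Groups did not overlap with si-CIRBP the lower for 4 of the 9, as for 24.3% of all genes tested, and overlapped for the other 5. Library 1 labelled si-CIRBP stood above libraries 2 and 3 for 8 of the 10 members, so the fits of the members below are given with and without it.

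Ccl5 was at 192, 118 and 144 FPKM across si-NC and 29.1, 5.47 and 4.97 FPKM in those labelled si-CIRBP. Library 1 was above the other two there but below every si-NC library. The log2 fold change was -3.83 (adjusted p = 0.000369, limma), and fragments differed 11.3-fold at equal depth (95% interval 10.4 to 12.3, counting error only). That interval leaves out the spread between libraries, with 459, 88 and 70 fragments in libraries 1, 2 and 3 labelled si-CIRBP. Without library 1 the fold change was -4.59 (adjusted p = 5.72e-07).

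Cxcl3 was at 25.2, 18 and 20.4 FPKM across si-NC and 1.6, 0.646 and 0.607 FPKM in those labelled si-CIRBP. All 3 of the latter lay far below every si-NC library. It had the smallest adjusted p of the members here (log2 fold change -3.53, adjusted p = 1.28e-06, limma), with 22-fold fewer fragments at equal depth (95% interval 18.3 to 26.7, counting error only). Without library 1 the fold change was -3.76 (adjusted p = 3.89e-07).

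Cx3cl1 was at 13.3, 10.1 and 9.87 FPKM across si-NC and 2.63, 0.541 and 0.446 FPKM in those labelled si-CIRBP. The groups did not overlap (log2 fold change -2.58, adjusted p = 0.00014, limma), and without library 1 the fold change was -3.01 (adjusted p = 4.92e-07).

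Ccl2 was at 1788, 1544 and 1541 FPKM across si-NC and 1467, 358 and 446 FPKM in those labelled si-CIRBP. Libraries 2 and 3 were far below si-NC and library 1 just below it. The log2 fold change of -1.39 (adjusted p = 0.0261, limma) became -2.02 (adjusted p = 2.13e-05) without library 1. The call was lost without si-NC library 1 or 3, or without library 2 or 3 labelled si-CIRBP (adjusted p between 0.0587 and 0.086). With only these 2 groups in the fit the adjusted p was 0.139, and with a variance factor for each group 0.0696.

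Ccl7, whose gene lies next to Ccl2 with no coding gene between them in RefSeq, was at 388, 257 and 346 FPKM across si-NC and 314, 72.5 and 89.9 FPKM in those labelled si-CIRBP. Library 1 lay inside the si-NC range, so the groups overlapped. The log2 fold change was -1.35 (adjusted p = 0.0377, limma), and -2 (adjusted p = 7.01e-05) without library 1. The call was lost in 12 of 23 alternatives, 9 of them without 1 library each (NC 1, 2 or 3, CIRBP 1 or 2, si-NC 1 or 3, si-CIRBP 2 or 3), with an adjusted p of at most 0.166. Ccl20 was at 0.321, 0.182 and 0.145 FPKM across si-NC and 0.0439, 0.043 and 0.0984 FPKM in those labelled si-CIRBP, from 14 and 4 fragments in all.

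Cxcl1, Cxcl2 and Cxcl10 shared a pattern in which library 1 labelled si-CIRBP was above all 3 si-NC libraries and libraries 2 and 3 were below them. Cxcl1 was at 463, 368 and 390 FPKM across si-NC and 588, 59.5 and 86.3 FPKM in si-CIRBP. Cxcl2 was at 3.6, 2.9 and 3.9 FPKM across si-NC and 15.2, 0.221 and 0.181 FPKM in si-CIRBP, where 472 fragments in library 1 stood against 7 and 5. Cxcl10 was at 123, 97.1 and 107 FPKM across si-NC and 181, 46.2 and 47.8 FPKM in si-CIRBP.

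The groups overlapped for these 3 genes. With all libraries the log2 fold changes were -1.48 for Cxcl1 (adjusted p = 0.12), -0.64 for Cxcl2 (adjusted p = 0.581) and -0.55 for Cxcl10 (adjusted p = 0.339, limma). Without library 1 labelled si-CIRBP they were -2.48 for Cxcl1 (adjusted p = 0.000127) and -1.19 for Cxcl10 (adjusted p = 1.25e-05). Cxcl2 then passed the filter through si-NC alone, so its direction was set by the filter. It is among the 8 of 9 tested members called lower in that fit. Cxcl12 was at 2.47, 38 and 26.2 FPKM across si-NC and 21, 25.3 and 25.4 FPKM in si-CIRBP. Its log2 fold change was 0.68 (adjusted p = 0.488, limma), -0.39 without si-NC library 1 (adjusted p = 0.0659) and 0.77 without library 1 labelled si-CIRBP (adjusted p = 0.492).

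Library 1 labelled si-CIRBP differed from libraries 2 and 3 by a graded amount. The ratio of its FPKM to their mean was 75.7 for Cxcl2, 8.07 for Cxcl1, 5.57 for Ccl5, 5.32 for Cx3cl1, 3.86 for Ccl7, 3.84 for Cxcl10, 3.65 for Ccl2 and 2.55 for Cxcl3. It was 0.827 for Cxcl12 and 0.62 for Ccl20. Of the 22 NF-kB genes 18 had a ratio above 1, from 0.774 for Traf3 to 4.47 for Nfkbia, with a median of 1.42. The inhibitors Tnfaip3 and Cyld had 4.35 and 1.19, and the subunits Rel, Nfkb2, Relb and Rela 1.96, 1.73, 1.6 and 1.04. Of 12 interferon factors 7 had a ratio above 1, from 0.805 for Irf7 and 0.808 for Irf9 to 2.88 for Irf1, with a median of 1.12. The colony-stimulating factor Csf2 was at 115 FPKM in library 1 and at 1.15 and 1.23 FPKM in the others. Macrophage markers summed to 16 FPKM in library 1 against 15.5 and 16.9 FPKM in libraries 2 and 3, most of it Cd14 (12.8 against 13.4 and 15 FPKM). Cd68 was at 3.17 FPKM against 1.96 and 1.78 FPKM, and Csf1r at 0.0953 FPKM against 0.102 and 0.0875 FPKM. Skeletal and cardiac muscle markers summed to 25 FPKM against 103 and 149 FPKM, fibroblast markers to 597 FPKM against 968 and 1220 FPKM, astrocyte markers to 115 FPKM against 156 and 164 FPKM, and neuron and oligodendrocyte markers to 24.8 FPKM against 14.8 and 15.3 FPKM. The smooth muscle list stood at 872 FPKM against 872 and 1063 FPKM, and the depth of the 3 libraries relative to NC library 1 was 1.01, 1.03 and 0.898. The part of these cells or of any other feature of that library in the result was not tested.

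**Figure D3:**
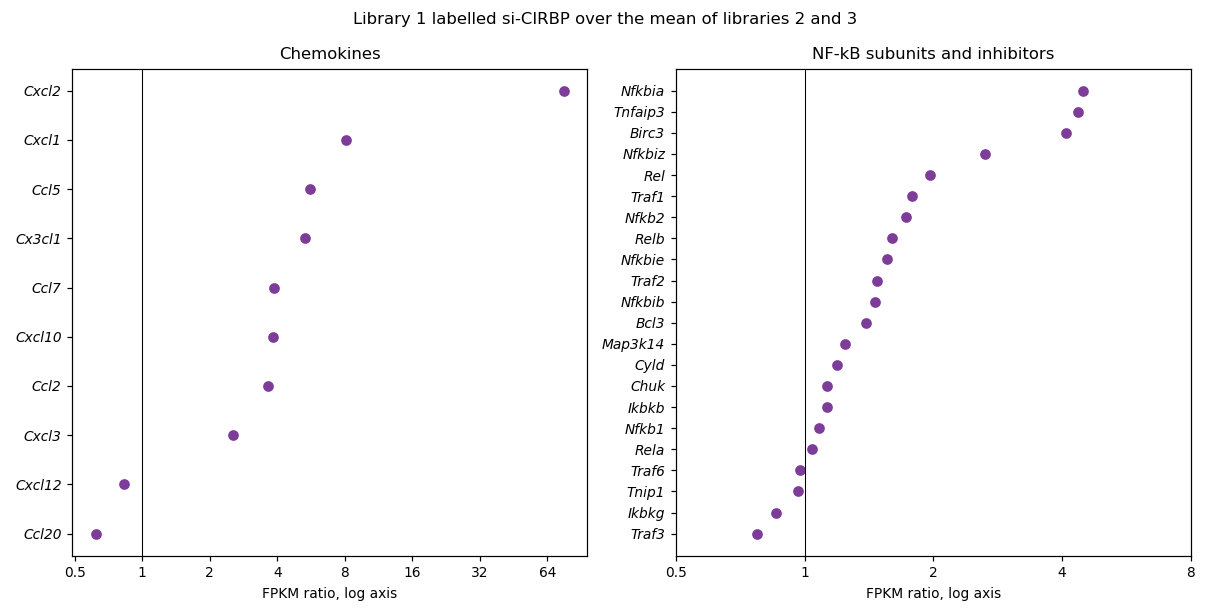
Ratio of the FPKM in library 1 labelled si-CIRBP to the mean of libraries 2 and 3 (horizontal log axes), for the 10 chemokines on the left and the 22 genes of the NF-kB list on the right, with a line at equal levels. Cxcl2 lies farthest out at 75.7 and Cxcl12 and Ccl20 lie below 1, while 18 of the 22 NF-kB genes lie above 1 and none above 4.47.

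The difference between the arms, CIRBP against NC minus si-CIRBP against si-NC, was tested in the same fit. It was above 0 for Cxcl3 at 1.89 (adjusted p = 0.00157, limma) and Cx3cl1 at 1.32 (adjusted p = 0.0472, limma), meaning a smaller decrease on this scale in CIRBP against NC, and it passed for none of the other 7. Of all genes tested 17.8% were called, 6.87% above 0 and 10.9% below. The counts at an unadjusted p under 0.05 were 2 above and 0 below. This direction depends on the scale. As ratios of mean FPKM, Cxcl3 was 44.8-fold lower in CIRBP than NC and 22.3-fold lower in si-CIRBP than si-NC, and Cx3cl1 was 62.5-fold and 9.17-fold lower. With a pseudocount of 0.1 the difference was 0.42 for Cxcl3 (adjusted p = 0.623) and -0.17 for Cx3cl1 (adjusted p = 0.897). Cx3cl1 also lost its call without any 1 of the libraries except library 1 labelled si-CIRBP (adjusted p between 0.0607 and 0.0988), and without that library 7 of the 9 members were called above 0, among them Cxcl2, which then passed the filter through si-NC alone.

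The control groups si-NC and NC were compared because they set the level from which each arm starts. These controls also enter the comparisons above, so the values are not independent of them. Of the 7 members at 1 FPKM or more in every NC library, 6 rose in si-NC, 0 fell and Cxcl10 did not pass the test (limma), against 34.4% of all genes called, 12.5% higher and 21.9% lower (1783 and 3126 genes, and 2149 and 2493 with every library brought to one median). The groups did not overlap, with si-NC higher, for all 7, as for 19.1% of all genes tested. The median log2 fold change was 3.62 over the 7 and -0.07 over all genes. Cxcl2 and Cxcl12 were under 0.31 FPKM in every NC library and entered the fit only through the si-NC and si-CIRBP libraries, where they were high, so their direction was set by the filter and they are given as values. Counted with them, 7 of 9 were called higher and 0 lower (8 and 0 at an unadjusted p under 0.05). How NC and si-NC differed in cells or handling is not given, so those differences and the treatment cannot be told apart.

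Among these 7 Ccl7 had the largest log2 fold change on the log2(FPKM + 1) scale, 5.39 (adjusted p = 6.58e-05, limma), from 6.81 ± 0.516 to 330 ± 66.6 FPKM, or 48.5-fold in mean FPKM. Ccl2 went from 70.2 ± 5.34 to 1624 ± 142 FPKM, 23.1-fold higher (adjusted p = 9.69e-05), and Ccl5 from 5.73 ± 1.33 to 151 ± 37.6 FPKM (4.49 on the log2 scale, adjusted p = 0.00025). Cxcl1 rose from 31.9 ± 0.74 to 407 ± 49.7 FPKM (3.62, adjusted p = 0.00294), Cxcl3 from 2.31 ± 0.477 to 21.2 ± 3.65 FPKM (2.74, adjusted p = 3.77e-05) and Cx3cl1 from 1.46 ± 0.15 to 11.1 ± 1.91 FPKM (2.29, adjusted p = 0.000461). All of these were apart by more than the spread of either group.

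Cxcl2 was at 0.0649 to 0.308 FPKM in the NC libraries and 2.9 to 3.9 FPKM in those of si-NC, 12 fragments against 304. Of the 7 members Cxcl10 moved least, from 73.2 ± 2.49 to 109 ± 13 FPKM (0.57 on the log2 scale, adjusted p = 0.304, and 0.000457 without library 1 labelled si-CIRBP, limma). The ratio of Ccl2 to Ccl7 was 9.69 to 11.1 in the NC libraries, 7.53 to 8.4 in CIRBP, 4.45 to 6 in si-NC and 4.68 to 4.96 in si-CIRBP, so the neighbouring genes did not move in step between the controls.

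Cxcl12 behaved apart from the other members. It rested on 1, 9 and 5 fragments in NC and on 5, 1 and 8 in CIRBP, and on 371, 5762 and 3744 in si-NC and 3296, 4059 and 3555 in si-CIRBP. In FPKM it was at 0.00641, 0.0662 and 0.0381 in NC against 2.47, 38 and 26.2 in si-NC. At equal depth its fragments were 627-fold more in si-NC (95% interval 380 to 1120, counting error only), a larger ratio than the 48.6-fold of Ccl7. No test is given, since it passed the filter only through the groups where it was high. Ackr3, the scavenging receptor of Cxcl12, went from 1.56 ± 0.231 to 19.9 ± 15.5 FPKM (2.58 on the log2 scale, adjusted p = 0.00829, limma), and its low si-NC library was also library 1, at 3.28 FPKM against 34 and 22.5. The other members were not low in that library, where Ccl2 was at 1788 FPKM.

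Some of the cell type marker lists moved with Cxcl12. The smooth muscle list, with all 5 genes in the table, summed to 5.51 to 8.34 FPKM in NC, 3.16 to 3.8 FPKM in CIRBP, 130, 1636 and 1244 FPKM in the si-NC libraries 1, 2 and 3, and 872 to 1063 FPKM in si-CIRBP. Within it Tagln was at 29.2, 357 and 277 FPKM in si-NC. The fibroblast list, with 5 of 6 genes in the table, summed to 88.9 to 90 FPKM in NC, 156 to 167 FPKM in CIRBP, 152 to 1204 FPKM across si-NC and 597 to 1220 FPKM in si-CIRBP. Its rise in si-NC was mostly in Col1a1 (42.4, 661 and 395 FPKM) and Col3a1 (27.9, 475 and 261 FPKM) and not in Pdgfra, which was at 81.1, 51.9 and 64.4 FPKM in the si-NC libraries 1, 2 and 3 and at 86 to 87.9 FPKM in NC, and its rise in CIRBP had no counterpart in Cxcl12. The skeletal and cardiac muscle list, with 7 of 9 genes in the table, summed to 4.23 to 4.48 FPKM in NC, 5.76 to 6.76 FPKM in CIRBP, 9.05, 114 and 47 FPKM in the si-NC libraries 1, 2 and 3, and 25 to 149 FPKM in si-CIRBP. No smooth muscle marker was at 0 throughout a group, and 1 fibroblast marker was listed at 0 in all 3 CIRBP libraries. The part of such cells in the Cxcl12 result was not tested.

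**Figure D4:**
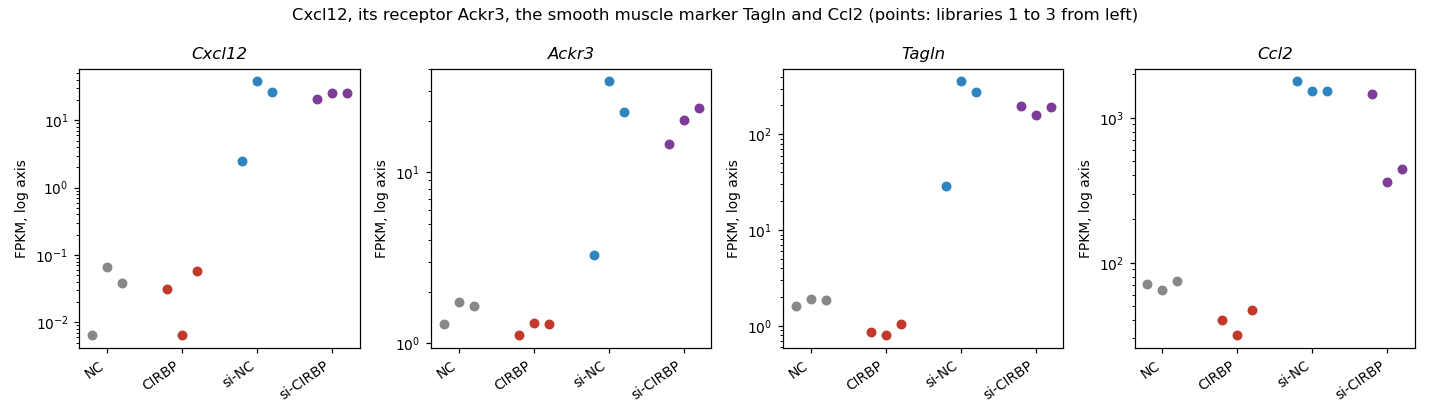
FPKM (log axes) of Cxcl12, its receptor Ackr3, the smooth muscle marker Tagln and, for comparison, Ccl2 in the 12 libraries, with points for libraries 1 to 3 of a group from left to right. Library 1 of si-NC is the lowest of its group for Cxcl12 (2.47 FPKM), Ackr3 (3.28 FPKM) and Tagln (29.2 FPKM) but the highest for Ccl2 (1788 FPKM). Library 1 labelled si-CIRBP is far above libraries 2 and 3 for Ccl2 alone among these 4 genes. For Tagln it is slightly above them (196 FPKM against 160 and 193 FPKM).

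Of 26 other chemokines listed, 10 had a row and 3 were tested. Cxcl16, which like Cx3cl1 is made as a membrane-anchored protein, fell in both arms, from 15.5 ± 0.77 to 9.65 ± 0.38 FPKM with CIRBP (log2 fold change -0.63, adjusted p = 0.000136) and from 26.6 ± 2.18 to 12.2 ± 1.54 FPKM in si-CIRBP (-1.07, adjusted p = 2.17e-05, limma). Cxcl11, another Cxcr3 ligand, fell from 1.96 ± 0.204 to 0.0477 ± 0.0501 FPKM in CIRBP (-1.5, adjusted p = 0.00255) and from 4.1 ± 0.599 to 1.27 ± 1.46 FPKM in si-CIRBP (-1.35, adjusted p = 0.0106, 0.0958 with only these groups in the fit, and -1.84 with 1.27e-05 without library 1 labelled si-CIRBP). Cxcl17 averaged 0.846 ± 0.238 FPKM for NC and 1.46 ± 0.102 FPKM for CIRBP. In the other arm it averaged 0.66 ± 0.1 FPKM for si-NC and 1.31 ± 0.377 FPKM for si-CIRBP. It passed the filter only with the CIRBP and si-CIRBP libraries, where it was high, so no test is given for it.

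Of 23 chemokine receptors listed, 7 had a row and 3 were tested, and apart from Ackr3 the highest level in any library was 1.64 FPKM. Ccr1, a receptor for Ccl5 and Ccl7, was at 1.36 ± 0.279 FPKM in si-NC, 0.4 ± 0.0979 FPKM in si-CIRBP, 0.17 ± 0.0491 FPKM in NC and 0.0537 ± 0.0454 FPKM in CIRBP, and it passed the filter through si-NC alone, so no test is given. Ccrl2, an atypical receptor, averaged 1.05 ± 0.197 FPKM for NC, 1.51 ± 0.142 FPKM for CIRBP, 0.602 ± 0.0962 FPKM for si-NC and 0.853 ± 0.155 FPKM for si-CIRBP. It passed the filter only with the CIRBP libraries, so no test is given for it either.

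The 22 genes of the NF-kB list, subunits, kinases and inhibitors, were all tested. In CIRBP 20 fell and 0 rose (limma; 21 and 0 at an unadjusted p under 0.05), with a median log2 fold change of -1.33 against -0.08 over all genes, and in si-CIRBP 17 fell and 0 rose (19 and 0 unadjusted), with a median of -0.64 against -0.04. Of all genes tested 34.2% and 20.5% fell. The subunit Rela fell from 64.1 ± 0.539 to 30.2 ± 0.85 FPKM in CIRBP (-1.06, adjusted p = 8.87e-08) and from 55.8 ± 2.43 to 39 ± 1.47 FPKM in si-CIRBP (-0.5, adjusted p = 5.03e-05). Relb, a subunit of the non-canonical branch, fell by 3.23 on the log2 scale in CIRBP and by 1.36 in si-CIRBP (adjusted p = 1.63e-07 and 0.00024). Nfkb2, its partner, fell by 1.47 in si-CIRBP (adjusted p = 0.000225) and more in CIRBP (-2.59, adjusted p = 1e-06). The adaptor Traf2 fell by 2.38 in CIRBP (adjusted p = 7.13e-07) and less in si-CIRBP (-1.08, adjusted p = 0.00065). The deubiquitinase Cyld, an inhibitor of the pathway, fell by 1.34 and 0.62 (adjusted p = 2.26e-07 and 0.000186).

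The difference between the arms was below 0 for 14 of these 22 and above 0 for 0 (18 and 0 unadjusted). Of all genes tested 10.9% were below 0 and 6.87% above. Between the controls 3 rose and 7 fell in si-NC, with a median log2 fold change of -0.17. These counts stand beside 12.5% of all genes tested that rose and 21.9% that fell, with a median of -0.07.

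Of 11 tested interferon factors of Cxcl10, 2 rose and 5 fell in CIRBP, and 0 rose and 4 fell in si-CIRBP (0 and 5 at an unadjusted p under 0.05, limma), with median log2 fold changes of -0.17 and -0.08. Of all genes tested 19.7% rose and 34.2% fell in CIRBP, and 9.08% and 20.5% in si-CIRBP. The shares of this list are near those in CIRBP. Irf9, a subunit of the factor that binds the ISRE, fell from 53.9 ± 1.31 to 10.4 ± 0.246 FPKM in CIRBP (-2.26, adjusted p = 3.42e-08) and from 50.9 ± 3.99 to 9.13 ± 1.21 FPKM in si-CIRBP (-2.36, adjusted p = 5.98e-08). Stat2, another subunit of that factor, fell by 0.75 in si-CIRBP (adjusted p = 0.00178, limma) and less in CIRBP (-0.41, adjusted p = 0.0203, limma). Irf7 fell by 2.22 and 2.71 (adjusted p = 5.47e-05 and 7.62e-05), whereas Irf3 rose by 0.84 in CIRBP (adjusted p = 7.69e-05). In library 1 labelled si-CIRBP, where Cxcl10 was highest, Irf1 was at 65.5 FPKM against 22.8 and 22.7 FPKM in libraries 2 and 3, while Irf9 and Irf7 were lower there than in the others.

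Of 13 tested upstream cytokines and receptors, 3 rose and 4 fell in CIRBP, and 1 rose and 4 fell in si-CIRBP (limma), with median log2 fold changes of -0.17 and -0.26. These counts are near the share of all genes in CIRBP (19.7% higher, 34.2% lower), and those in si-CIRBP stand beside 9.08% and 20.5%. Il1rap, a co-receptor of the interleukin-1 family, rose from 29.6 ± 0.345 to 69.4 ± 4.07 FPKM in CIRBP and from 26.1 ± 3.74 to 51.7 ± 4.86 FPKM in si-CIRBP (1.2 and 0.97, adjusted p = 2.95e-06 and 7.6e-05, limma). Il1rl1, the receptor of Il33, fell by 2.48 in CIRBP (adjusted p = 8.87e-08) and less in si-CIRBP (-0.52, adjusted p = 0.00584). Il33 itself fell by 0.69 in si-CIRBP (adjusted p = 0.000588). The endotoxin receptor Tlr4 fell by 1.01 and 0.82 (adjusted p = 0.000107 and 0.00145), and the adaptor Myd88 by 0.4 in CIRBP (adjusted p = 0.00132). The interleukin-17 receptor Il17ra fell by 0.42 in si-CIRBP (adjusted p = 0.000622) and less in CIRBP (-0.17, adjusted p = 0.0306).

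Of 9 proteins that bind or cut AU-rich and related mRNAs, 2 rose and 3 fell in CIRBP, and 0 rose and 2 fell in si-CIRBP (1 and 2 at an unadjusted p under 0.05, limma), with median log2 fold changes of -0.17 and -0.09. The counts match the shares of all genes closely (19.7% higher and 34.2% lower in CIRBP, 20.5% lower in si-CIRBP). Arid5a, which stabilises cytokine mRNAs, rose by 0.85 in CIRBP (adjusted p = 6.36e-05), and Khsrp rose by 0.26 and Hnrnpd fell by 0.29 (adjusted p = 0.0079 and 0.00535). Under scaling by median ratios the Hnrnpd value was -0.17 (adjusted p = 0.0527), and with every library brought to one median it was -0.14 (adjusted p = 0.0896), neither of them called. Zfp36l2 fell by 0.67 in CIRBP and 0.51 in si-CIRBP (adjusted p = 0.000206 and 0.00346), the latter with 0.0554 from only the groups compared. Zc3h12a (regnase-1), an endonuclease that degrades inflammatory mRNAs, fell from 32.6 ± 1.04 to 20.9 ± 6.32 FPKM in si-CIRBP (-0.65, adjusted p = 0.0124, 0.0874 with only these groups in the fit, and -0.87 with 0.000125 without library 1 labelled si-CIRBP) and was higher by 2.41 in si-NC than in NC (adjusted p = 3.18e-05).

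The list of proteases that shed or cut chemokines also holds an inhibitor of such enzymes. Of its 7 tested genes, 1 rose and 1 fell in CIRBP, and 0 rose and 2 fell in si-CIRBP (0 and 2 at an unadjusted p under 0.05, limma), with median log2 fold changes of 0.06 and -0.11. Of all genes 19.7% rose and 34.2% fell in CIRBP, and 9.08% and 20.5% in si-CIRBP. Mmp9 fell from 1.95 ± 0.127 to 0.106 ± 0.00747 FPKM in CIRBP and from 9.04 ± 1.87 to 3.96 ± 3.63 FPKM in si-CIRBP (-1.41 and -1.23, adjusted p = 0.00704 and 0.0268). Adam10, a sheddase of Cx3cl1 and Cxcl16, rose by 0.25 in CIRBP (adjusted p = 0.0172). Mmp3 averaged 1.78 ± 0.633 FPKM for si-NC and 0.856 ± 0.291 FPKM for si-CIRBP and is counted as lower there, but it passed the filter only with the si-NC libraries, so its call is not used. Mmp9 in si-CIRBP lost its call without si-NC library 1 or 3 or without library 2 or 3 labelled si-CIRBP (adjusted p between 0.0626 and 0.0912), and without library 1 labelled si-CIRBP it was at -1.79 (adjusted p = 1.74e-05). Adam10 lost its call without NC library 3 or CIRBP library 1 or 3 (between 0.0501 and 0.0558).

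**Figure D5:**
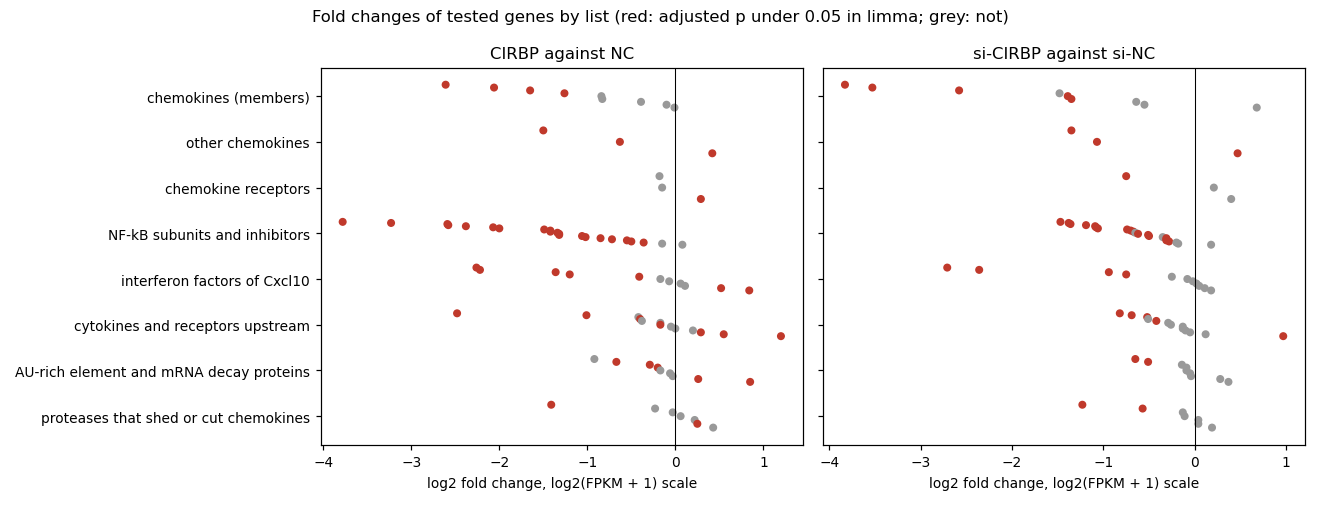
Log2 fold changes on the log2(FPKM + 1) scale (horizontal axes) of every tested gene of 8 lists (rows), in CIRBP against NC on the left and si-CIRBP against si-NC on the right, with 1 point per gene, red where the adjusted p in limma is under 0.05. The NF-kB list has 20 of 22 genes in red and lower on the left and 17 of 22 on the right, whereas the interferon, cytokine and mRNA decay lists on the left hold red points on both sides of 0.

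The tested genes most like each member over the 12 libraries, by Pearson r on log2(FPKM + 1), are given as a description, since these libraries share groups and treatment. Ccl2 was closest to its neighbour Ccl7 (r = 0.9953) and to Zc3h12a (r = 0.9936), and Ccl7 was closest to Zc3h12a (r = 0.9975). Cxcl1 was closest to complement C3 (r = 0.9888), Ccl5 to Scube3 (r = 0.9873) and Cxcl10 to Ifngr1 (r = 0.9734). Cxcl2 was closest to Csf2 (r = 0.9874) and Il1a (r = 0.9867), which share its peak in library 1 labelled si-CIRBP, with Il1a at 4.69 FPKM there and 0.106 and 0.243 FPKM in libraries 2 and 3. Cxcl3 was closest to Il23r (r = 0.9926) and Cxcl16 (r = 0.99), and Cx3cl1 to Cish (r = 0.9905). Cxcl12 was closest to Lox, Ptk7 and Nexn (r = 0.9996, 0.9995 and 0.9991), and Lox had the same low library, with 3.06, 41.2 and 27 FPKM in si-NC.

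Between members r ran from 0.41 for Cxcl12 with Cxcl3 or Cxcl10 to a rounded 1 for Ccl2 with Ccl7. Cxcl3 and Cx3cl1, on chromosomes 14 and 19 of GRCr8, reached 0.99, and Ccl5 and Cx3cl1 0.98. Cxcl1 and Cxcl2, adjacent on chromosome 14 with no coding gene between them, reached 0.85, and Cxcl1 and Cxcl3, with 1 coding gene between them, 0.78. Cxcl1 was 38.7 to 499 times as abundant as Cxcl2 across the libraries. Members of the Ccl and Cxcl clusters resemble each other in sequence, and how reads shared by such genes or by overlapping genes were assigned, and whether strand was used, are not given, so single values of these genes are uncertain to that extent.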

How the data were processed

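The deposited table gives FPKM for each gene and library, computed by the authors per the file headers. Per the submitters' processing notes, the tools were Cufflinks 2.2.1 and Bowtie2 2.3.3.1 (no roles given) with mouse builds mm10 and GRCm38, while identifiers are rat Ensembl ones, so the build is unclear. Poly-A RNA was sequenced with paired ends, per the labels' protocols. Groups follow the sample titles.

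Groups were compared with limma 3.58.1 in R 4.3.3 on log2(FPKM + 1), 1 coefficient per group, eBayes with a trend, in 14257 genes with at least 1 FPKM in 3 libraries. Fits had 8 residual and 2.53 prior degrees of freedom, with two-sided p-values and Benjamini-Hochberg adjustment across every tested gene. On simulated data at these sizes, 96% of 100 genes changed by 1 (log2) were recovered in CIRBP against NC. The changed genes there were well expressed, each gene had the same spread in every group, and no library stood apart. The real libraries differ in these respects, so that share does not give the power for the members. Depth in reads is not given in FPKM, so fragments were recovered from the steps of low values and used for counting intervals alone.

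The members and gene lists were chosen with earlier results of these data known. Named genes are all members, up to 4 called genes per list and arm (smallest adjusted p first), and the 3 genes most like each member. Of these, 1 list gene is not reported here. Nfkbia, Tnfaip3, Rel, Traf3, Irf1 and the receptors and markers named besides were chosen after their values were seen. Alternatives covered the pseudocount, filter, scaling, variance factors, replicate block, groups fitted and libraries left out. Promoters are from RefSeq (GRCr8).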

Additional observations from a re-analysis of the deposited data

Results flagged for a closer look

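The log2 fold changes of Cxcl3 and Cx3cl1 differed between the arms by the interaction term of the limma fit, by 1.89 (adjusted p = 0.00157) and 1.32 (adjusted p = 0.0472). Cxcl3 changed by -1.65 in CIRBP against NC and by -3.53 in si-CIRBP against si-NC, lower in 3 of 3 libraries of each treated group. Cx3cl1 changed by -1.26 and -2.58, likewise in 3 of 3 libraries. Ratios of mean FPKM put the arms in the opposite order for both genes, as given with that comparison.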

How the results depend on the processing

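The chemokine counts were recomputed under 23 alternatives (22 for the difference between the arms). Counts called higher in either arm were 0 in each. In CIRBP against NC the 4 members called lower became 7 with only the groups compared and 7 without si-NC library 1 and si-CIRBP library 1, and 3 to 6 with 1 library left out. In si-CIRBP against si-NC the 5 called lower became 3 with a variance factor per group, 3 with only the groups compared and 3 to 8 with 1 library left out, 8 being without si-CIRBP library 1. The 2 called above 0 in the difference became 0 with a pseudocount of 0.1, 1 with a pseudocount of 0.5, 1 with no filter, 1 scaled to one median, 6 without both libraries 1 and 1 to 7 with 1 library left out. In si-NC against NC 7 to 9 were called higher with 1 library left out.

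Directions turned for these members, none of them called with all libraries. In CIRBP against NC, Cxcl12 ranged from -0.03 to 0.01 with 1 library left out (0.01 without NC library 2 or CIRBP library 2). In si-CIRBP against si-NC, Cxcl2 ranged from -1.89 to 0 (0 without si-CIRBP library 3), and Cxcl12 from -0.39 without si-NC library 1 to 1.35, and was at -0.31 without both libraries 1. In the difference, Ccl5 was at -0.95 with a pseudocount of 0.1, Cxcl1 ranged from -1.22 to 0.42 (without si-CIRBP library 1) and was at 0.32 without both libraries 1, Cxcl2 ranged from -0.1 (without si-CIRBP library 3; -0.07 without library 2) to 1.79, Cxcl10 from -0.62 to 0.35 (without si-CIRBP library 1, adjusted p = 0.042) with 0.26 without both (adjusted p = 0.0253), and Cxcl12 from -1.36 to 0.39 (without si-NC library 1) with 0.3 without both. Cx3cl1, which was called, was at -0.17 in the difference with a pseudocount of 0.1. The cause of these turns was not tested.

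Over all genes, 4218 calls in si-CIRBP against si-NC became 2019 with a variance factor per group and 1155 with only the groups compared, 2535 calls in the difference became 1529 to 4503 with 1 library left out and 5880 without both libraries 1, and 4909 calls in si-NC against NC became 2950 to 6698 and 8139. Scaling to one median moved the median of all genes from -0.08 to 0.03 and from -0.04 to 0.06 in the arms. Of 961 values of the other named list genes, 45 lost their call and 0 turned.

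Same-numbered libraries deviated together with correlations of 0.1, 0.05 and 0.1 in NC and CIRBP and 0.01, -0.09 and 0.04 in si-NC and si-CIRBP. Libraries with different numbers had -0.08 to -0.01 in NC and CIRBP and -0.1 to 0.09 in si-NC and si-CIRBP. Whether same-numbered libraries share a source was not tested. A replicate block gave 4 and 5 members called lower in the arms, 2 above 0 in the difference and 7 higher between the controls, as without it, and of the other named genes only Ccrl2 in CIRBP lost its call (adjusted p = 0.0754). With 3 libraries a group and FPKM steps of 1 fragment, Ccl20, and Cxcl2 and Cxcl12 in NC and CIRBP, were at the limit of depth.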
